A study of Bos indicus x Bos taurus with 17 samples.

Results

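The levels of 8 transcription factor genes of the hepatocyte lineage were followed in fetal bovine liver, with skeletal muscle of the same fetuses as the contrast. The genes were HNF4A, FOXA1, FOXA2, FOXA3, CEBPA, CEBPB, ONECUT1 and PROX1, chosen by gene symbol from what is known of liver development. The choice was made with earlier results of these data known. All 8 were found once each among the 21048 genes listed per tissue. The fetuses were Bos indicus x Bos taurus F1 hybrids at about day 105 of gestation. They were conceived by artificial insemination (Control-AI 2 and Control-AI 4) or were produced in vitro with a body weight similar to the controls (ART-Normal 1 to 4), and each gave 1 liver and 1 muscle library. The weight class of ART-Normal 4 rests on the name given here to the assisted-reproduction fetuses, since the study's methods list ART-Normal 1 to 3 and not this fetus. Replicates were therefore separate fetuses, 4 of one conception group and 2 of the other.

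These factors form the core of the network that makes and keeps a hepatocyte. The FOXA proteins are pioneer factors that open chromatin at liver enhancers in the foregut endoderm. HNF4A is a nuclear receptor that drives most of the mature hepatocyte programme, and ONECUT1 (also called HNF6) acts upstream of it and also in bile duct development. CEBPA and CEBPB are basic leucine zipper factors that control metabolic and acute-phase genes. PROX1 is a homeobox factor that hepatoblasts need to migrate out of the liver bud and that also specifies lymphatic endothelium. The fetal liver is in addition a site of blood formation, so bulk tissue holds many cells that are not hepatocytes.

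Total counts were 18454088 to 43339598 in the 6 liver libraries and 12433300 to 23578362 in the 6 muscle libraries. The marker genes matched the tissue labels. The 23 hepatocyte genes measured summed to between 50856 and 380358 CPM (read counts scaled to the size of each library, after TMM normalization) in liver and to between 60.3 and 477 CPM in muscle. The 8 skeletal muscle markers summed to 7.14 to 25.6 CPM in liver and to 9337 to 14816 CPM in muscle, and MYOD1, the myogenic determination factor, had 0 reads in every liver library. Red cell precursor markers were high in liver, with summed levels of 4439 to 5069 CPM against 7.72 to 18.5 CPM in muscle. Control-AI 2 stood apart in both tissues. On the first principal component its liver library was at -46.0 while no other liver library was below 2.48, and its muscle library was at -45.7 while no other was below 4.70. Values that rest on this fetus are given with and without it. In bulk tissue, fewer cells of a type and less RNA per cell cannot be told apart.

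HNF4A (chromosome 13, 72825806 to 72855373, + strand, on the ARS-UCD1.2 assembly) took the most liver reads of the 8 genes. In the livers of ART-Normal 1 to 4 it was at 239, 266, 267 and 291 CPM, and in those of Control-AI 2 and 4 it was at 260 and 222 CPM. The 6 livers lay within 1.31-fold of each other. In muscle, it was at 0, 0.0555, 0.0868 and 0.446 CPM in ART-Normal 1 to 4, and at 0.377 and 0.283 CPM in Control-AI 2 and 4. These muscle values come from 24 reads in all, of which no library held more than 9. Summed over the libraries, liver exceeded muscle 1349-fold, with a 95% exact interval of 907 to 2106 that covers counting error only. The fitted log2 fold change was 10.34 (SE 0.30, adjusted p = 9.9e-13, edgeR quasi-likelihood test with Benjamini-Hochberg adjustment).

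The few HNF4A reads in muscle can be set beside liver secretory transcripts in the same muscle libraries. HNF4A in muscle was at 0 to 0.153% of its level in the liver of the same fetus. Albumin (ALB) was at 0.0125 to 0.109% and AHSG, which encodes fetuin-A, at 0.0274 to 0.303%. These shares overlap, and the part of stray liver RNA in the muscle reads was not tested.

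The FOXA genes were at or near 0 in muscle in the same way. FOXA1 (chromosome 21, 47778970 to 47782753, - strand) took the fewest liver reads, at 8.02, 5.94, 8.01 and 6.74 CPM in ART-Normal 1 to 4 and at 6.95 and 7.99 CPM in Control-AI 2 and 4. Muscle held 1 FOXA1 read over 6 libraries, in Control-AI 4. The summed ratio of liver to muscle was 882, with a counting interval of 158 to 34881.

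FOXA2 (chromosome 13, 41478502 to 41545758, - strand) varied little between livers, at 63.9, 54.9, 54.2 and 59.5 CPM in ART-Normal 1 to 4 and at 55.6 and 58.4 CPM in the controls. Its highest liver was 1.18-fold above its lowest. Muscle held 4 FOXA2 reads, spread over ART-Normal 3, ART-Normal 4 and Control-AI 2, with 3 libraries at 0.

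FOXA3 (chromosome 18, 53384980 to 53391520, + strand), the FOXA gene best known for glucose metabolism genes of the later liver, varied more. It was at 47.4, 79.1, 60.9 and 74.1 CPM in the livers of ART-Normal 1 to 4 and at 79.4 and 78.4 CPM in those of Control-AI 2 and 4. Its lowest liver was ART-Normal 1, and the highest was 1.67-fold above it. Muscle held 8 reads, 6 of them in Control-AI 4. The fitted log2 fold changes of liver over muscle were 9.09 for FOXA1 (SE 0.39), 10.58 for FOXA2 (SE 0.28) and 9.98 for FOXA3 (SE 0.35), with adjusted p-values of 3.6e-11, 4.4e-13 and 5.0e-12 in edgeR. With so few muscle reads, these fitted values depend on the prior count and are no measure of how far the genes differ from each other.

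ONECUT1 (chromosome 10, 57606475 to 57639205, + strand) was at 28.0, 33.6, 29.4 and 30.6 CPM in the livers of ART-Normal 1 to 4 and at 20.1 and 22.4 CPM in those of Control-AI 2 and 4. It was the only one of the 8 whose liver levels did not overlap between conception groups, a difference taken up below with its test. In muscle a single ONECUT1 read was counted, in ART-Normal 4. The summed ratio of liver to muscle was 3579, with a counting interval of 642 to 141392, and the fitted log2 fold change was 11.01 (SE 0.29, adjusted p = 4.4e-13, edgeR).

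**Figure D1:**
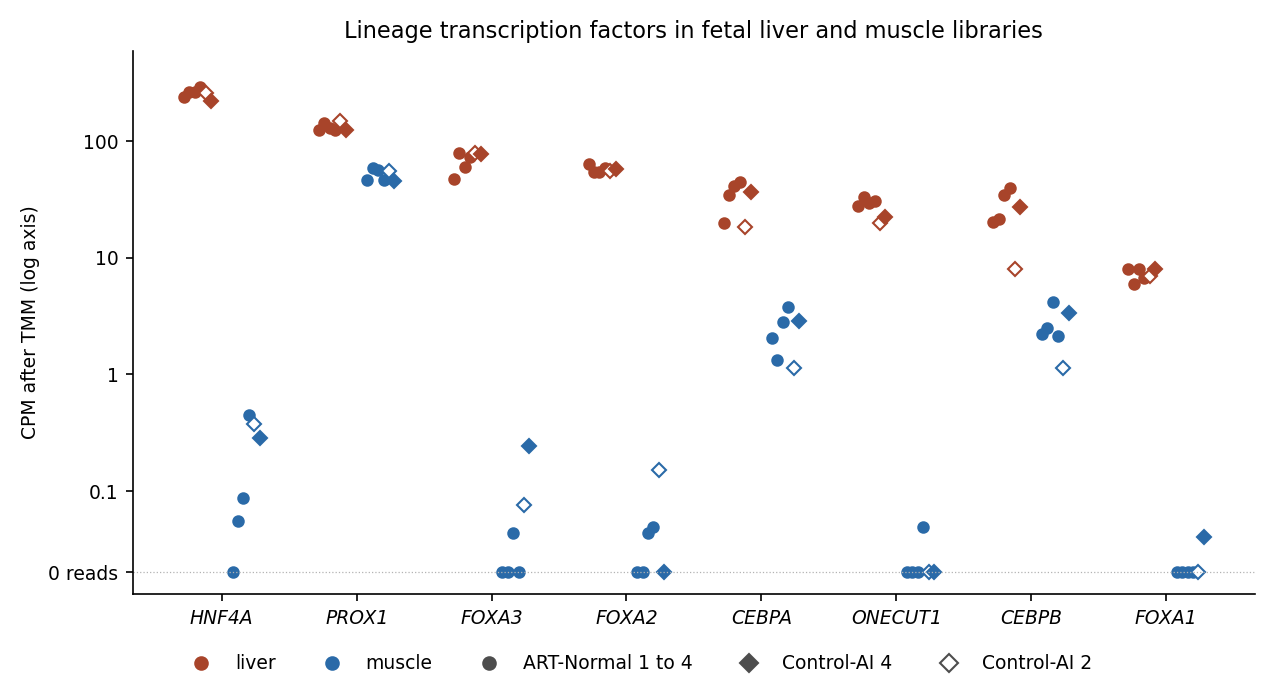
Level of each of the 8 factors in every liver (red) and muscle (blue) library, in CPM after TMM normalization on a log axis, with libraries without a read on the dotted line. Circles are ART-Normal 1 to 4, the filled diamond is Control-AI 4 and the open diamond Control-AI 2; HNF4A, FOXA1, FOXA2, FOXA3 and ONECUT1 lie under 0.5 CPM in every muscle library, while PROX1 is at 46.2 CPM or more in all 12 libraries.

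CEBPA and CEBPB were present in both tissues and were the most variable of the 8. CEBPA (chromosome 18, 43728248 to 43729478, - strand), which restrains proliferation and drives metabolic genes in hepatocytes, was at 20.1, 34.6, 41.4 and 45.2 CPM in the livers of ART-Normal 1 to 4. It was at 18.4 CPM in the liver of Control-AI 2 and at 37.1 CPM in that of Control-AI 4. In muscle, CEBPA was at 2.06, 1.33, 2.82 and 3.77 CPM in ART-Normal 1 to 4 and at 1.13 and 2.87 CPM in Control-AI 2 and 4. Every liver was above every muscle library, and liver exceeded muscle 9.78-fold to 26.0-fold within a fetus.

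CEBPB (chromosome 13, 78205757 to 78206803, + strand), the acute-phase and regeneration counterpart, was at 20.2, 21.6, 34.5 and 39.8 CPM in the livers of ART-Normal 1 to 4. Its level was 8.11 CPM in the liver of Control-AI 2 and 27.3 CPM in that of Control-AI 4. In muscle it was at 2.22, 2.50, 4.17 and 2.13 CPM in ART-Normal 1 to 4 and at 1.13 and 3.36 CPM in the controls. Control-AI 2 was the lowest library for both genes in both tissues, and ART-Normal 4 and ART-Normal 3 were the highest livers for both. Liver exceeded muscle in every fetus, by 7.18-fold to 18.7-fold. The log2 fold change of liver over muscle was 3.79 for CEBPA (SE 0.31, adjusted p = 3.8e-08) and 3.24 for CEBPB (SE 0.35, adjusted p = 8.2e-07, both edgeR).

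The C/EBP genes are also used by macrophages and granulocytes. The 8 myeloid markers measured summed to 257 to 326 CPM in liver and to 52.3 to 76.9 CPM in muscle. Of the 7 tested, 7 were higher in liver, beside 40.8% of all genes tested, and 2 of them entered the test through liver alone. MPO, an enzyme of granulocyte precursors, was at 8.49 to 17.5 CPM in liver and at no more than 0.377 CPM in muscle. The MPO span overlaps that of another gene, LPO, so reads of these genes may not be separable. In the livers of ART-Normal 1 to 4 the myeloid sum was 257, 273, 268 and 326 CPM, and in those of Control-AI 2 and 4 it was 306 and 304 CPM. ART-Normal 4, highest in CEBPA and CEBPB, was also highest in this sum, while Control-AI 2, lowest in both genes, had the second highest. How much of the CEBPA and CEBPB signal came from such cells was not tested.

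PROX1 (chromosome 16, 69530598 to 69586099, - strand) differed least between the tissues. It was at 124, 145, 129 and 124 CPM in the livers of ART-Normal 1 to 4 and at 148 and 124 CPM in those of Control-AI 2 and 4. In muscle it was at 46.5, 59.1, 56.6 and 46.6 CPM in ART-Normal 1 to 4 and at 55.3 and 46.2 CPM in the controls. The ratio of liver to muscle was narrow, from 2.29 in ART-Normal 3 to 2.69 in Control-AI 4, and liver was higher in 6 of 6 fetuses. The log2 fold change was 1.36 (SE 0.09, adjusted p = 5.5e-09, edgeR).

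PROX1 is also used by lymphatic endothelium, so markers of that cell type were set beside it. Of the 4 lymphatic markers tested, LYVE1, FLT4 and RELN were higher in liver, beside 40.8% of all genes tested, and PDPN was lower. LYVE1, a hyaluronan receptor that liver sinusoids carry as well, was at 65.6 to 83.0 CPM in liver and 8.74 to 14.4 CPM in muscle. PDPN (podoplanin) was at no more than 0.461 CPM in liver and at 8.44 to 17.3 CPM in muscle, and it entered the test through muscle alone. CCL21, a lymphatic chemokine, was at no more than 0.647 CPM in liver and at 0.666 to 3.48 CPM in muscle. These 2 markers were thus near 0 in liver. The list as a whole summed to 296 to 360 CPM in liver and 47.0 to 66.8 CPM in muscle. In liver it was carried by LYVE1 and mostly by RELN, at 187 to 254 CPM there and 14.5 to 26.5 CPM in muscle. The cell types that gave the reads of these markers, and their part in the PROX1 levels, were not tested.

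The liver and muscle ranges overlapped for none of the 8 genes, and the edgeR test called each of them higher in liver. PROX1 alone reached the filter in both tissues. The other 7 were tested only because every library of a liver group had at least 5 CPM, while none of their muscle libraries did, so a difference in this direction was largely set by the filter and their count is no support. Of all genes tested, 9.5% entered through liver alone. Beside the count stands a background in which 40.8% of the 12923 genes tested were higher in liver and 81.3% differed in one direction or the other. Ranges that did not overlap, with liver above, were found for 32% of the genes tested. The call of each gene held under each normalization, test, filter and leave-one-out setting in which it could be fitted, and with the fetus as a block.

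Levels of different genes were compared only per kilobase of the gene span over which reads were counted. CEBPA was at 26.7 ± 9.03 CPM per kb (SD, n = 6 livers) and CEBPB at 24.1 ± 10.8, and the spread of these neighbours overlapped. FOXA3 followed at 10.7 ± 1.99 and HNF4A at 8.71 ± 0.81 CPM per kb, again with overlapping ranges. The range of CEBPB overlapped both. In the liver of Control-AI 2 it was at 7.75 CPM per kb, below FOXA3 (12.1) and HNF4A (8.81). PROX1 (2.39 ± 0.20) was above FOXA1 (1.92 ± 0.23) in every liver, with no overlap between the genes. FOXA2 (0.859 ± 0.054) and ONECUT1 (0.835 ± 0.156) closed the order and overlapped. The spans include introns. They are 1231 bp for CEBPA and 1047 bp for CEBPB, which have no introns, but 29568 bp for HNF4A, 32731 bp for ONECUT1, 55502 bp for PROX1 and 67257 bp for FOXA2, so the order understates the genes with long introns.

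The 8 factors split by how much they varied between livers of the same age. The SD of the log2 CPM over the 6 livers was 0.09 for FOXA2, 0.12 for PROX1, 0.14 for HNF4A and 0.18 for FOXA1, all under the median of 0.21 over the 11304 genes tested in liver. Without Control-AI 2 this held for FOXA2 (0.10), PROX1 (0.10) and HNF4A (0.15), but FOXA1 (0.20) was then above the median of 0.18. It was 0.28 for ONECUT1 and 0.30 for FOXA3, and 0.55 and 0.81 for CEBPA and CEBPB. Of the genes tested, 4.59% varied more than CEBPA and 1.59% more than CEBPB. Without Control-AI 2, the SD was 0.46 for CEBPA and 0.42 for CEBPB, and 3.28% and 4.31% of the genes varied more, so the order of these 2 genes turned. Within the 4 ART-Normal livers alone it was 0.52 and 0.49, so the spread of these genes was present inside 1 conception group.

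In the liver of Control-AI 2, some hepatocyte genes known to be bound by these factors stood far above the other livers while none of the 8 factors did. HNF4A, FOXA1 and FOXA2 in Control-AI 2 lay inside the range of the other livers, and FOXA3 and PROX1, although highest there, were close to the next liver (79.4 against 79.1 CPM and 148 against 145 CPM). CEBPA, CEBPB and ONECUT1 were lowest there, as 27.1% of all genes tested were, and CEBPB was over 2-fold below the next liver, as 1.53% were. These places depend on the TMM factor of this library, 0.748. Scaled by library size alone, Control-AI 2 was the lowest liver also for HNF4A (195 against at least 219 CPM), FOXA1 (5.20 against 6.16), FOXA2 (41.6 against 52.7) and PROX1 (111 against at least 120 CPM), and inside the range for FOXA3. In the same library ALB was at 74969 CPM, against 6856 to 12959 CPM in the other 5 livers, and AHSG at 149373 CPM, against 3930 to 8232 CPM. SERPINA1, which encodes alpha-1-antitrypsin, was at 59087 CPM against 3335 to 8069 CPM, and alpha-fetoprotein (AFP) at 41382 CPM against 5659 to 12980 CPM. ALB per unit of HNF4A was 288 in Control-AI 2 and 25.8 to 58.4 in the other livers.

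Under TMM, other secreted products were less apart in that liver, or not at all. TF, APOA2, RBP4, F2, FGA and FGB were highest there, each by less than 2-fold over the next liver. Transthyretin (TTR) was at 2236 CPM in Control-AI 2 and 1360 to 2596 CPM in the others, and apolipoprotein B (APOB) was at 3658 CPM against 3143 to 3845 CPM. Fibrinogen gamma (FGG), at 3467 CPM, was also inside the range of the others, 3023 to 3477 CPM. These places also depend on the TMM factor of this library, 0.748 against 0.964 to 1.04 in the other livers. Scaled by library size alone, F2, FGA and FGB would not be highest there, and APOB and FGG would be lowest. Of the 23 hepatocyte genes, 10 were highest in Control-AI 2 under TMM and 4 were over 2-fold above the next liver. Over the 11304 genes tested, 24.9% were highest in this library and 1.22% over 2-fold above the next. The muscle of the same fetus also held more of these transcripts, with ALB at 81.9 CPM against 1.23 to 9.81 CPM in the other muscles. Conversely, its liver held more muscle transcripts. The skeletal muscle markers summed to 25.6 CPM there against 7.14 to 9.75 CPM in the other livers, 5 of 8 were over 2-fold above the next liver, and the skeletal actin gene ACTA1 was at 2.68 CPM against no more than 0.0667 CPM. The sum of the stellate and mesenchymal markers was also highest in this liver, at 558 CPM against 285 to 447 CPM. Of these markers, 4 of 7 were highest there, 0 of them over 2-fold above the next liver, and LRAT, LHX2 and HAND2 were not. The part of RNA from other cells or libraries in these values was not tested.

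**Figure D2:**
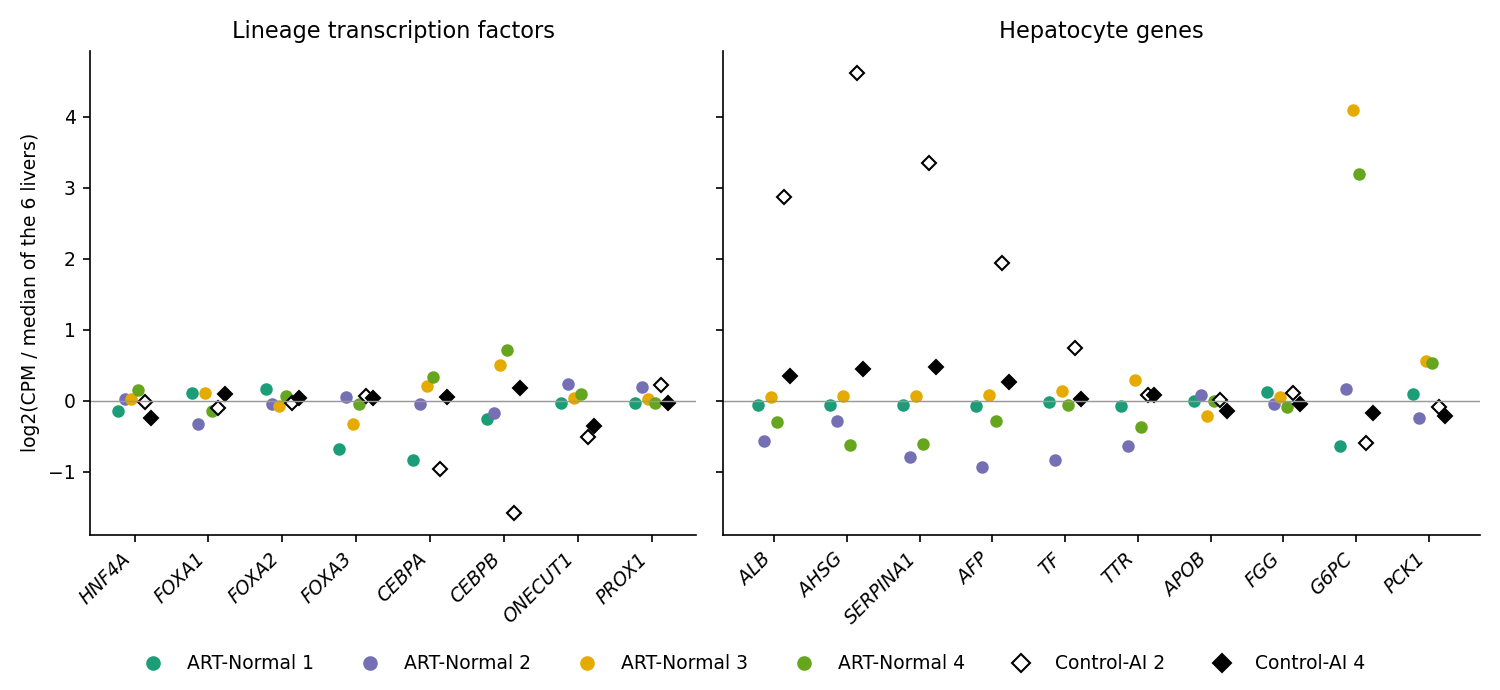
Each liver library relative to the median of the 6 livers, as the log2 of the CPM ratio, for the 8 factors (left) and 10 hepatocyte genes (right). Points are single libraries; under TMM, the open diamond of Control-AI 2 lies near 0 for HNF4A, FOXA1 and FOXA2 and below for CEBPA and CEBPB, yet far above for ALB, AHSG, SERPINA1 and AFP, and G6PC stands high in ART-Normal 3 and 4.

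The hepatocyte gene G6PC had another pattern, and was singled out after its values were seen. It encodes the catalytic subunit of glucose-6-phosphatase, the last enzyme of glucose release, and CEBPA is among its known activators. G6PC was at 35.7 CPM in ART-Normal 3 and at 19.1 CPM in ART-Normal 4, against 1.34 to 2.34 CPM in the other 4 livers. The same pair of livers had the highest CEBPA and CEBPB. Control-AI 4 came next for both factors, with CEBPA at 37.1 CPM and G6PC at 1.85 CPM. A link between these factors and G6PC was not tested. PCK1, which encodes the first committed enzyme of gluconeogenesis, was low in all 6, at 1.89 to 3.32 CPM, with ART-Normal 3 and 4 on top at 3.32 and 3.25 CPM. G6PC and PCK1 did not reach the filter of 5 CPM in all libraries of a group and so have no test.

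Whether conception by assisted reproduction went with other levels of these factors was asked in liver first. With the edgeR quasi-likelihood test, 0 of the 8 factors differed between ART-Normal and Control-AI, and 0 of the 11304 genes tested did so (percent called 0). Before adjustment, 1 of the 8, ONECUT1, and 948 of all genes (8.39%) had a p under 0.05. The likelihood ratio test of edgeR called 89 genes and DESeq2 called 56, none of them among the 8. A p that misses the threshold here does not show that the groups were alike, since there were only 2 controls.

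ONECUT1 was the member with the clearest separation. All 4 ART-Normal livers (28.0 to 33.6 CPM) were above both controls (20.1 and 22.4 CPM). The log2 fold change was 0.51 (SE 0.16), with an unadjusted p of 0.0085 and an adjusted p of 0.50 (edgeR). Over the alternatives it was between 0.45 and 0.71, with adjusted p-values of 0.15 to 1.00, so it was positive in every setting tried and past the threshold in none. Without Control-AI 2 the value was 0.45. Ranges that did not overlap, with ART-Normal above, were found for 9.19% of the genes tested, and in either direction for 18.4%, so that 1 member of 8 is close to the background.

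For CEBPA and CEBPB the comparison turned on which control was used. Set against both controls, the ART-Normal livers had a log2 fold change of 0.34 for CEBPA (SE 0.34, adjusted p = 0.72) and of 0.69 for CEBPB (SE 0.44, adjusted p = 0.62, both edgeR). Without Control-AI 2 the values were -0.06 and 0.10. Without Control-AI 4, which leaves Control-AI 2 as the only control, they were 0.94 for CEBPA (adjusted p = 0.22) and 1.83 for CEBPB (adjusted p = 0.025), and this fit assumes that a lone control varies like the other group. That setting called 830 genes in all, so the CEBPB call describes 1 liver that stood apart across many genes.

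The other factors had small differences in liver. The log2 fold change was 0.14 for HNF4A (SE 0.14), -0.07 for FOXA1 (SE 0.22), 0.02 for FOXA2 (SE 0.13), -0.27 for FOXA3 (SE 0.19) and -0.06 for PROX1 (SE 0.13). Their adjusted p-values in edgeR were 0.74, 0.92, 0.96, 0.64 and 0.88. The sign for FOXA1 and PROX1 was positive, at 0.12 and 0.16, when libraries were scaled by their total alone, and the sign for FOXA2 was negative, at -0.02, with upper quartile scaling. No direction is therefore given for these 3 genes. HNF4A and FOXA3 kept their sign in every setting, but their levels overlapped between the groups. HNF4A was at 0.27 without Control-AI 2 and at 0.02 without Control-AI 4, and FOXA3 at -0.25 and -0.29.

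**Figure D3:**
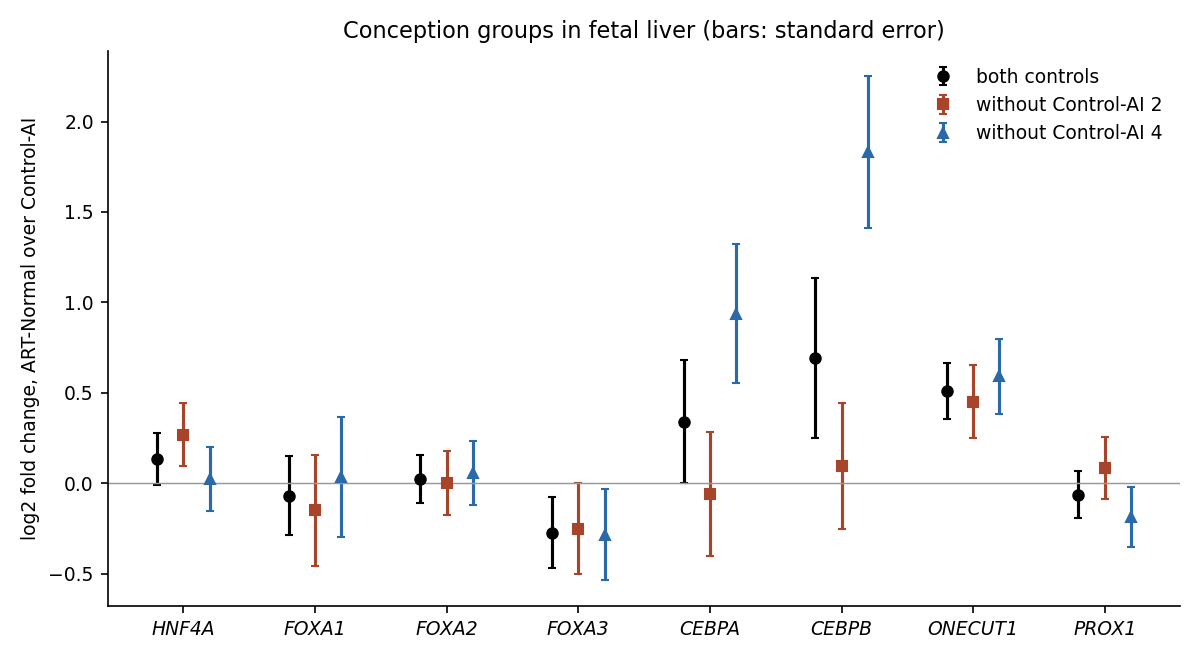
Difference between conception groups in liver for each factor, as the log2 of ART-Normal over Control-AI, with standard errors as bars, from the fit with both controls (black circles) and from fits without Control-AI 2 (red squares) or without Control-AI 4 (blue triangles). ONECUT1 stays between 0.45 and 0.59 in the 3 fits, whereas CEBPB runs from 0.10 to 1.83.

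In muscle, only PROX1 reached the filter for a test of conception. Its log2 fold change was 0.05 (SE 0.16, adjusted p = 0.95), in a comparison that called 1 gene of 11695 (0.00855%), while 1075 (9.19%) were under 0.05 before adjustment. Its muscle levels, given above, overlapped between the groups. The difference between tissues in the effect of conception was tested for the 3 members with at least 10 reads in every library. It was 0.10 for CEBPA (SE 0.64), 0.47 for CEBPB (SE 0.72) and -0.10 for PROX1 (SE 0.20), with adjusted p-values of 1.00, 0.96 and 0.97 (edgeR). Of the 12923 genes, 0 passed this interaction test (percent called 0), 717 (5.55%) were under 0.05 before adjustment, and the likelihood ratio test and DESeq2 called 98 and 37.

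Of 7 paralogs of the 8 factors measured, 4 were tested between the tissues and called higher in liver, beside 40.8% of all genes tested. ONECUT2 and HNF4G entered the test through liver alone, and CEBPD and CEBPG through both tissues. ONECUT2 was at 262 to 324 CPM in liver and 0.278 to 1.28 CPM in muscle (log2 fold change 8.45, adjusted p = 3.4e-13, edgeR). Per kb of span, ONECUT2 was at 4.96 ± 0.43 CPM in liver, above ONECUT1 at 0.835 ± 0.156 in every library, and ONECUT3 was at or near 0. HNF4G, the second HNF4 gene, was at 17.4 to 30.0 CPM in liver and 0.678 to 2.04 CPM in muscle, and per kb at 0.179 ± 0.039 against 8.71 ± 0.81 for HNF4A.

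CEBPD and CEBPG were present in both tissues at closer levels. CEBPD was at 17.5 to 34.9 CPM in liver and 11.8 to 19.5 CPM in muscle (log2 fold change 0.79), and CEBPG, which lacks an activation domain and pairs with the other C/EBP proteins, was at 40.3 to 51.4 CPM against 27.7 to 35.7 CPM (0.52). CEBPD was lowest in Control-AI 2 in both tissues, as were CEBPA and CEBPB, whereas CEBPG was not, at 50.3 CPM in liver and 35.7 CPM in muscle. CEBPE, a granulocyte factor, was at no more than 2.11 CPM anywhere. PROX2 was under 1.5 CPM in all libraries but those of Control-AI 2, at 5.80 CPM in liver and 8.59 CPM in muscle. PROX2 overlaps DLST, a gene of the citric acid cycle, so reads of these 2 genes may not be separable.

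Of 15 partner regulators of liver, 14 were tested, 12 were called higher in liver and 0 lower, beside 40.8% of all genes tested. Of these, 6 entered through liver alone. Among the 7 that reached the filter in both tissues, 6 were higher in liver. PPARA, the nuclear receptor of fatty acid oxidation, was at 234 to 262 CPM in liver and 50.0 to 61.6 CPM in muscle. Its partner RXRA was at 132 to 204 CPM in liver and 90.7 to 171 CPM in muscle, and XBP1, a secretory pathway factor, at 129 to 186 CPM in liver and 60.1 to 97.0 CPM in muscle. The 2 that did not pass were TBX3 (log2 fold change -0.13) and HLX (-0.26), and both were named after their values were seen. TBX3, needed for the hepatoblast to leave the liver bud, was at 21.4 to 29.1 CPM in liver and at 23.8 to 31.5 CPM in muscle.

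GATA4, a zinc finger partner of the FOXA factors in the endoderm, was at 26.5 to 38.8 CPM in liver with 1 library above 0 in muscle, at 0.0434 CPM. It was likewise named after its values were seen.

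**Figure D4:**
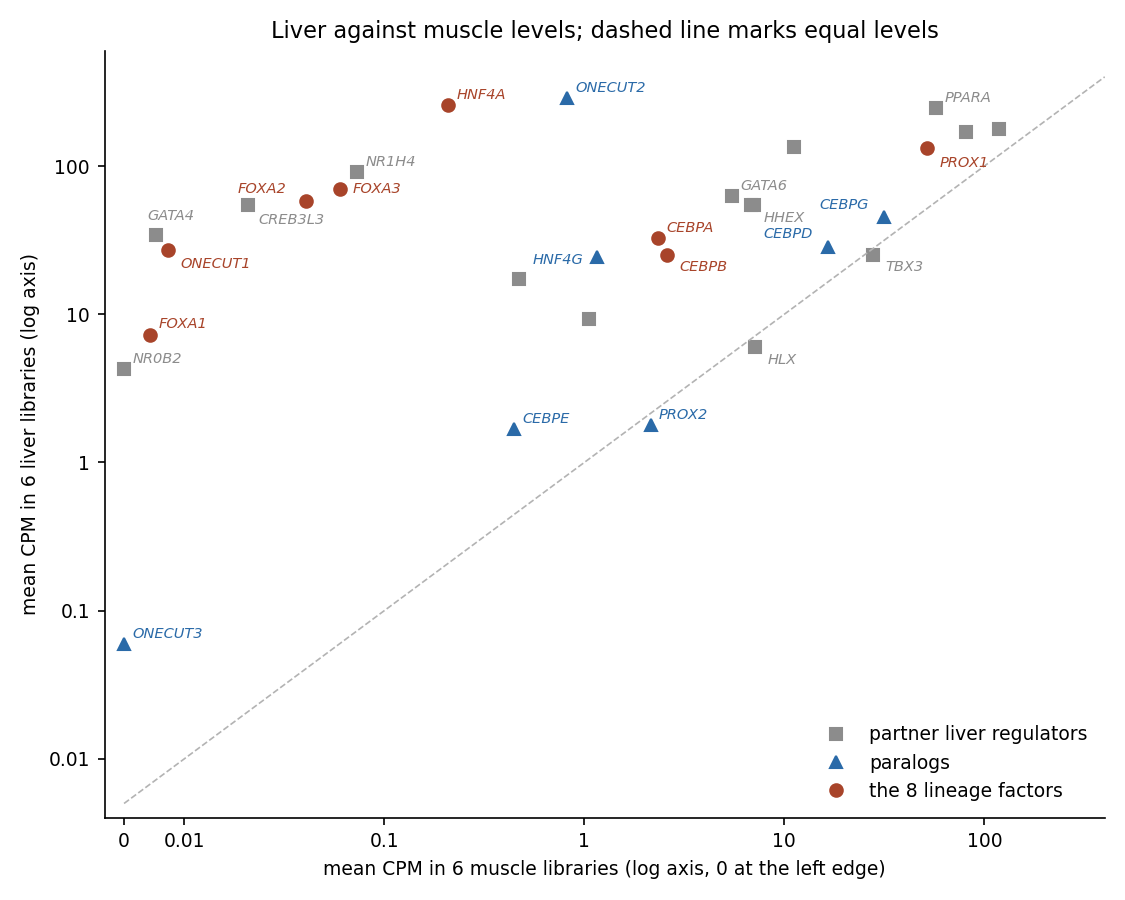
Mean level in the 6 liver libraries against the mean in the 6 muscle libraries, in CPM on log axes, for the 8 factors (red circles), their paralogs (blue triangles) and partner liver regulators (grey squares, some named). Points above the dashed line are higher in liver; HNF4A, the FOXA genes and ONECUT1 lie far above it, CEBPA and CEBPB nearer, and PROX1 close to it, while TBX3 and HLX lie just under it.

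Of the 23 hepatocyte genes, 20 were tested between the tissues and were called higher in liver, beside 40.8% of all genes tested. As 15 of these entered the test through liver alone, the count was largely set by the filter. The 5 that also reached it in a muscle group were ALB, APOA1, AHSG, RBP4 and F2. Transferrin (TF), an iron carrier, was at 6904 to 20737 CPM in liver and at 0.475 to 30.6 CPM in muscle. Between conception groups, 0 of 20 passed in liver. CYP7A1, which encodes the rate-limiting enzyme of bile acid synthesis and is a known HNF4A target, was at 0 in 3 livers and at no more than 0.230 CPM in the others. The 6 bile duct markers summed to 45.6 to 71.7 CPM in liver and to 168 to 249 CPM in muscle, where SPP1 (osteopontin) made up 149 to 226 CPM. Of the 5 tested, 3 were higher in liver, KRT19, EPCAM and CFTR, and 2 were lower, SOX9 and SPP1. KRT19, EPCAM and CFTR entered the test through liver alone and SOX9 through muscle alone, so their directions were largely set by the filter. Only SPP1 reached the filter in both tissues.

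Genes with the most similar pattern across the 6 livers were listed for each factor as a description. For HNF4A they were NOL4L (r = 0.99), ELN (0.98) and FAM19A5 (0.98). For the FOXA genes they were MGC137014, CDKL4 and LAMTOR5 (0.97 to 0.98, FOXA1), ASNSD1, TMEM30A and AGO4 (0.98 to 0.99, FOXA2), and GNAZ, FAM3A and TMEM110 (0.991 to 0.996, FOXA3). For CEBPA they were CRIP1, ZAP70 and ARID3A (0.994 to 0.996), for CEBPB they were H2AFJ, POLR2L and TUBA4A (0.990 to 0.994), for ONECUT1 they were PLCL2, WBP1L and LRRC8B (0.989 to 0.996), and for PROX1 they were MYO1E, NECAB2 and MCCC2 (0.961 to 0.969). Over the 5 livers without Control-AI 2, each of these r values was 0.95 or more. Such values are common with 6 libraries, which all points share. Over the 11304 genes tested, the highest r with any other gene had a median of 0.994 (5th to 95th percentile 0.978 to 0.999), and the highest r of the 8 factors, 0.969 to 0.996, was not above that background.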

How the data were processed

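Gene counts of liver and skeletal muscle from 6 fetuses were used, grouped by the labels. A total of 17 samples are in the labels, and the 5 kidney samples were not analysed here. The libraries were poly(A)-selected, strand-specific. The values are raw counts per gene, which the authors deposited without normalization, on ARS-UCD1.2. The submitters' processing notes name FastQC 0.11.7, HISAT2 2.1.0, Cufflinks, SAMtools, featureCounts and edgeR 3.24.3, and the strand setting of the counting is not given in the sources used here. For all 21048 genes the listed length equals the whole gene span, so introns were counted. A further 14 count columns (7 per tissue) match no sample of the labels and were not used. The 5 deposited comparison tables, which hold log fold changes, log CPM, likelihood ratios, p-values and FDR, were not used either.

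CPM after TMM normalization over the 12 libraries, log2 fold changes, standard errors and two-sided p-values came from edgeR 4.0.16 (quasi-likelihood test, limma 3.58.1) in R 4.3.3, with p-values adjusted by Benjamini-Hochberg and called at 0.05. A gene was tested where every library of a tissue and conception group reached 5 CPM by library size. Liver against muscle was fitted on all 12 libraries with conception as a covariate, and conception within each tissue on 6. The tissues came from the same fetuses. Deviations from the group mean correlated between the tissues of a fetus at r = 0.19, 0.03, 0.08 and 0.31 in ART-Normal 1 to 4. The controls gave a single value, 0.34, since deviations in a group of 2 mirror each other. Alternatives were other scalings, the likelihood ratio test, DESeq2 1.42.0, other filters, a block and leaving out fetuses. No pair of libraries agreed within sampling noise. Intervals are exact and cover counting error only. The procedures were tested on simulated data with 200 changed genes. Python 3.11.15, pandas 2.3.3, numpy 2.4.6, scipy 1.17.1 and matplotlib 3.10.9 were used for tables and plots.

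All 8 factors were named. From the other lists, the 2 to 4 genes with the highest mean in each tissue were to be named, and the rest of the genes named were chosen after their values were seen. Some genes of the lists are not reported here and were left out of the counts of their lists. Likeness was the Pearson r of log2 CPM (prior count 1) across the livers. The 8 factors and the lists were chosen with earlier results of these data known.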

Additional observations from a re-analysis of the deposited data

How the results depend on the processing

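The call that each of the 8 factors was higher in liver held in all 131 values recomputed under the alternatives. The number of genes called between liver and muscle, 10503, was 10177 to 10759 when 1 fetus was left out, 10941 with the fetus as a replicate block and 7320 in the Control-AI fetuses alone. In liver, the conception comparison called 0 genes, and 8 with library size alone, 89 with the likelihood ratio test, 56 with DESeq2, 2 with ART-Normal 1 to 3 only and 6 with the replicate number as a block. It called 0 to 830 when 1 fetus was left out, with 830 without Control-AI 4, 1 without Control-AI 2, and 2 each without ART-Normal 3 and ART-Normal 4. In muscle, 1 gene was called, and 120 with the likelihood ratio test, 106 with DESeq2, 0 with ART-Normal 1 to 3 only, 90 with the replicate block, and 0 to 1327 when 1 fetus was left out, with 1327 without Control-AI 4. The interaction called 0 genes, 98 with the likelihood ratio test, 37 with DESeq2, 0 with the block, and 0 to 232 when 1 fetus was left out, with 232 without Control-AI 4. The cause of these shifts was not tested.

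The replicate number in the conception comparisons is only a name shared by tissues and groups. The block changed the call of none of the 8 factors. Library size alone moved the median log2 fold change of all genes in the liver conception comparison from 0.01 to 0.21, and with it the sign for FOXA1 (0.12) and PROX1 (0.16), and for PROX1 in the interaction (0.13). Upper quartile scaling gave -0.018 for FOXA2. In liver against muscle, library size alone moved the median to -0.13, without a change of call. Leaving out 1 fetus turned some signs. In liver, the values ran from -0.15 (without Control-AI 2) to 0.035 (without Control-AI 4) for FOXA1, from -0.026 (without ART-Normal 1) to 0.057 (without Control-AI 4) for FOXA2, from -0.058 (without Control-AI 2) to 0.94 (without Control-AI 4) for CEBPA, and from -0.19 (without Control-AI 4) to 0.084 (without Control-AI 2) for PROX1. In muscle, PROX1 ran from -0.062 (without Control-AI 4) to 0.17 (without Control-AI 2), and in the interaction CEBPA ran from -0.20 (without Control-AI 4) to 0.21 (without ART-Normal 4). Only CEBPB in liver passed the threshold in any of them, without Control-AI 4 (1.83). With 2 controls, depth was not the only limit. FOXA1 had as few as 96 reads in a liver library, and in muscle a count of 0 allows up to 0.119 to 0.226 CPM per library. That limit holds only for libraries without a read. FOXA1, FOXA2 and ONECUT1 had no more than 2 reads in any muscle library. HNF4A had 9 reads in ART-Normal 4 (0.446 CPM), 5 in Control-AI 2 (0.377) and 7 in Control-AI 4 (0.283). FOXA3 had 6 reads in Control-AI 4 (0.243).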

Other observations

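LPL, which encodes lipoprotein lipase and is on the adipocyte list, was at 65.4, 67.4, 107 and 101 CPM in the livers of ART-Normal 1 to 4. It was at 31.2 CPM in the liver of Control-AI 2 and at 48.0 CPM in that of Control-AI 4. Control-AI 2 was the lowest liver for both LPL and CEBPB, and ART-Normal 3 and 4 were the highest pair for both. The other fat cell genes of the list were lower than LPL in every liver. PPARG was at 3.62 to 7.23 CPM in liver and at 1.81 to 9.42 CPM in muscle. PLIN1 was at 2.26 to 3.32 CPM in liver and at 2.79 to 6.56 CPM in muscle. FABP4, a fatty acid carrier of fat cells, had 0 reads in all 6 livers, and ADIPOQ, the adiponectin gene, was at no more than 0.172 CPM. LPL was singled out after its values were seen.

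Endothelial markers differed in direction between the tissues. STAB2, a scavenger receptor of sinusoids, was at 221 to 283 CPM in liver and 0.793 to 2.08 CPM in muscle. Of the 7 blood endothelial markers tested, 2 were higher in liver, STAB2 and VWF, beside 40.8% of all genes tested, and 4 were lower, PECAM1, CDH5, KDR and EMCN. STAB2 entered the test through liver alone. Of the 7 stellate and mesenchymal markers, LRAT, LHX2 and HAND2 were higher in liver, beside 40.8% of all genes tested. DES, COL1A1 and DCN were lower, and PDGFRB passed in neither direction. LRAT, LHX2 and HAND2 entered the test through liver alone and DES through muscle alone, so the directions of these genes were largely set by the filter. LHX2, a stellate cell factor, was at 8.56 to 12.8 CPM in liver and 0.167 to 1.13 CPM in muscle.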
